A study of Mus musculus with 15 samples.

Results

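Expression of 10 genes of newly formed neurons was followed in RNA from the whole brain of 15 C57BL/6J males: Sox4, Sox11, Dlx1, Dlx2, Dcx, Tubb2b, Tubb3, Igfbpl1, Cd24a and Draxin. They were chosen by name, as 10 of the 43629 genes listed in the deposited tables, and Sox4 and Igfbpl1 were already known to be lower in old than in young mice fed ad libitum. Levels of the members in that comparison are therefore described without a test. All 10 genes passed the filter on low counts that left 15864 genes, and every p-value was adjusted over these. The mice carried no transgene or mutation named in the labels. They were young (3 months in the labels) or old (24 months in the labels), and either had food at all times (ad libitum, AL) or were fed every other day (EOD), briefly in the young and for almost the whole life in the old. Each of the AL groups held 4 mice, the young EOD group held 3 and the old EOD group 4, with 1 library per mouse.

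In the adult mouse brain, new neurons arise from stem cells along the wall of the lateral ventricles and in the dentate gyrus of the hippocampus. Those from the ventricle wall migrate as neuroblasts to the olfactory bulb, where most become GABAergic interneurons. Neuroblasts and immature neurons transcribe SoxC and Dlx transcription factors, the microtubule protein doublecortin and neuron-specific tubulins, and the number of such cells is known to fall with age. The 10 genes are not restricted to them: several are also transcribed in mature neurons, in the olfactory bulb or in glia and ependyma.

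Between 5198748 and 13610729 counts on genes were available per mouse (median 9886766). The third young AL mouse stood apart, with a count above 0 at 17280 genes against 19054 to 20880 in the other mice. The age differences of the 10 genes in AL mice are given with and without that mouse. The file headers named 3 sequencing lanes, of which the third held no young EOD mouse. Markers of the labelled tissue were present: the summed level of 10 markers of mature neurons ranged from 9417 to 11752 CPM (counts scaled to the library size, with TMM), and none of them was at 0 in every mouse. Because whole brain was measured, fewer immature neurons and less RNA per immature neuron cannot be told apart. Nor can either be told from a different share of other cells that transcribe the same genes.

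Promoter sequences are shown for Sox4 and Dcx, which varied together with Dlx2 between mice, and for Sox11, which was lower in every old mouse than in any young mouse. A RefSeq table on build GRCm38.p6 held windows for 7 of the 10 genes, and matched Sox4, Sox11, Dlx1, Dlx2, Dcx, Tubb3 and Draxin. Each window is the 250 bases before the RefSeq start, cut here to the bases before the gene as the deposited tables place it, and written 5′ to 3′ on the gene's strand. That of Sox11 ends 144 bases before the gene. The window of Dlx1 lies inside the gene's span and is not printed. Capitals mark CCAAT (read as ATTGG where it lies on the other strand) and TATAAA.
Sox4, chr13:28953714-28953949, strand -: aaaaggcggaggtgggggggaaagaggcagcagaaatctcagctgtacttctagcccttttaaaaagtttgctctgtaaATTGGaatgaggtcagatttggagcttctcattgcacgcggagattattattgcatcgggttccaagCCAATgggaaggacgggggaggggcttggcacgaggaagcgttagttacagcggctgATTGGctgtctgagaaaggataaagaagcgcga
Sox11, chr12:27342719-27342968, strand -: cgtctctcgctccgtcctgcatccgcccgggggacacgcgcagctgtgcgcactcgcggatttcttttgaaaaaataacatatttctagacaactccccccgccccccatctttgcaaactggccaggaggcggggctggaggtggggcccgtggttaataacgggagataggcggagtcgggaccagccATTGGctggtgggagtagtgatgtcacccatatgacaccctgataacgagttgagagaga
Dcx, chrX:143933312-143933469, strand -: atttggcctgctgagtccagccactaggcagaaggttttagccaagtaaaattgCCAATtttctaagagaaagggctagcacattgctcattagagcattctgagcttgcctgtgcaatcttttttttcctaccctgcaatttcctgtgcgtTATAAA
Dlx2, chr2:71546755-71547004, strand -: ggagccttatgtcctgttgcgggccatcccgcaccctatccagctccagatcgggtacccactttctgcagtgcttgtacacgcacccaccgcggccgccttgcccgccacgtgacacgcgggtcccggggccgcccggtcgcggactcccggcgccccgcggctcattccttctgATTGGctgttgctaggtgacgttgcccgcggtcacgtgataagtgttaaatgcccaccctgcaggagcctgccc
In the full windows, CCAAT on either strand occurred 4 times before Sox4, and once before each of Sox11, Dlx2 and Tubb3 and in the more upstream of the overlapping windows of Dcx. It was found in 5 of 8 member windows and in 33.8% of all 32851 windows, and 0.84% of all windows held at least as many copies as that of Sox4. TATAAA was found in both windows of Dcx and in 12.4% of all windows, and TAATTA, a core of homeobox sites, in both windows of Dcx and in 4.8% of all. The windows of Dcx overlap and share the same site of each motif. That of TAATTA lies inside the gene's span and not in the bases printed. GGGCGG occurred in 4 member windows (32.7% of all) and CANNTG in 4 (66.2% of all). The GC content of the windows ranged from 41.6% and 44.8% for Dcx to 79.6% for Draxin, around a median of 52.4% over all windows. These matches describe letters and not binding.

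Per length of transcript, the 10 genes spanned most of the range of brain genes. The neuronal tubulin Tubb3 was highest, at 142.5 ± 14.3 RPKM (counts scaled by exon length and library size; mean ± SD, n = 15), above 98.5% of the tested genes. Tubb2b, a beta-tubulin of migrating neurons, followed with 30.1 ± 3.18 RPKM, and both ranges lay apart from that of the next gene. Below them, each gene's range overlapped that of its neighbour: Dlx1 (7.45 ± 1.34 RPKM), Cd24a (6.38 ± 1.26), Sox4 (5.21 ± 1.48), Dcx (2.93 ± 1.09), Sox11 (1.71 ± 0.240), Dlx2 (1.27 ± 0.454), Igfbpl1 (0.599 ± 0.363) and Draxin (0.163 ± 0.101). Igfbpl1 and Draxin were above only 8.99% and 0.725% of the tested genes, and their counts per mouse ranged from 4 to 51 and from 1 to 18, so that counting error is large in both.

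**Figure D1:**
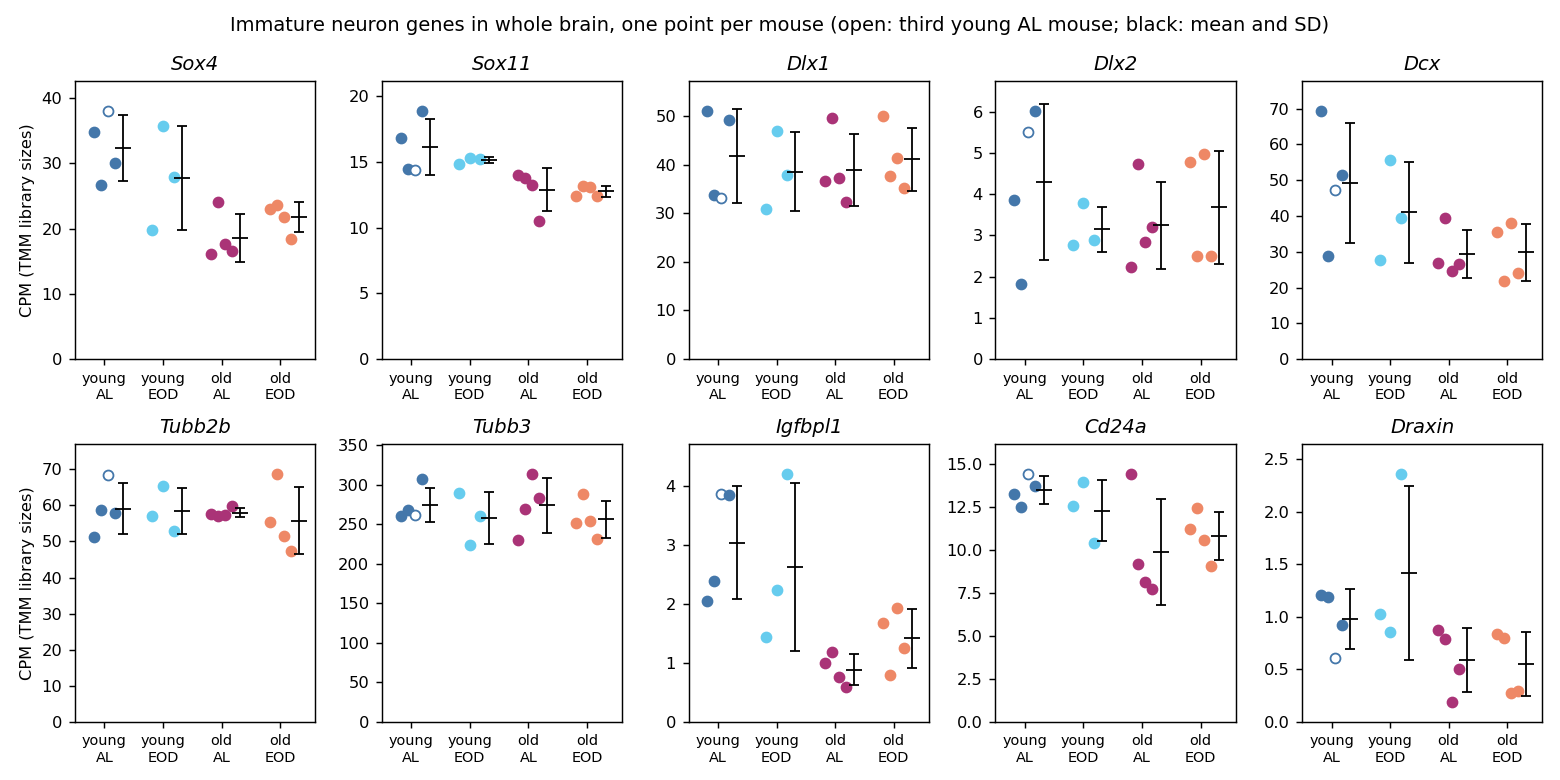
Level of each gene in every mouse, in CPM on TMM library sizes (y axis, linear from 0), by group (x axis). Points are mice, the open point is the third young AL mouse, and black marks give the mean and SD. Sox11 in the 8 old mice (10.5 to 14.1 CPM) sits below the 7 young mice (14.4 to 18.9 CPM), and Tubb2b and Tubb3 overlap between all groups.

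Sox4 and Sox11 encode SoxC transcription factors that switch on neuronal genes in newborn neurons. Sox4 was measured at 34.8, 26.7, 38.1 and 30.1 CPM in the young AL mice and at 19.8, 35.8 and 27.9 CPM in the young EOD mice. In old mice it was at 16.2, 24.0, 17.6 and 16.6 CPM under AL feeding and at 22.9, 23.7, 21.8 and 18.5 CPM under EOD feeding. All old AL mice were below all young AL mice, as was the case for 1.58% of the tested genes. That comparison was known when the genes were chosen. The first young EOD mouse, in contrast, lay within the range of the old EOD mice. The log2 fold change with age was -0.80 ± 0.16 (SE) in AL mice, or -0.71 ± 0.17 without the third young AL mouse, and -0.34 ± 0.17 in EOD mice with an FDR of 0.914 (edgeR quasi-likelihood test, Benjamini-Hochberg adjusted). The EOD value was -0.54 without the first and -0.13 without the second young EOD mouse, and -0.17 ± 0.16 with sequencing lane as a covariate. Within lanes 1, 2 and 3, the AL difference was -0.91, -0.88 and -0.85 on the log2 scale. These values rest on 1 old and 2 young, 2 old and 1 young, and 1 old and 1 young mouse. The only young AL mouse of lane 2 was the third. The EOD difference was 0.21 in lane 1 (1 old and 1 young mouse) and -0.41 in lane 2 (1 old and 2 young mice).

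Sox11 was at 16.9, 14.5, 14.4 and 18.9 CPM in young AL mice and at 14.9, 15.3 and 15.2 CPM in young EOD mice. Its levels in old mice were 14.1, 13.8, 13.2 and 10.5 CPM under AL and 12.4, 13.2, 13.1 and 12.4 CPM under EOD feeding. Every old mouse was below every young mouse, which held for 24 of the 15864 genes tested (0.151%). The lowest young mouse was at 14.4 against 14.1 CPM for the highest old mouse. These AL mice had 191 and 113 counts of Sox11, so that counting error exceeds the gap between them. The AL mice come from the comparison known when the genes were chosen. In EOD mice alone the groups did not overlap either, as for 4.29% of the tested genes. The age difference was small. The log2 fold change was -0.25 ± 0.14 (SE) in EOD mice (FDR 0.931) and -0.33 ± 0.13 in AL mice (-0.39 ± 0.13 without the third young AL mouse), and it stayed between -0.26 and -0.23 in EOD mice when each of the 15 mice was left out in turn.

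Dlx1 and Dlx2 are neighbouring homeobox genes of the GABAergic lineage, on in neuroblasts bound for the olfactory bulb and in interneurons. Dlx1 ranged from 33.2 to 51.1 CPM in young AL, from 30.8 to 46.9 in young EOD, from 32.3 to 49.6 in old AL and from 35.1 to 50.002 CPM in old EOD mice, so that all groups overlapped. Dlx2 ranged from 1.83 to 6.02, from 2.77 to 3.78, from 2.24 to 4.72 and from 2.50 to 4.97 CPM in the same order. Their log2 fold changes with age were 0.11 ± 0.18 (SE) and 0.26 ± 0.38 in EOD mice (FDR 0.995 for both) and -0.10 ± 0.16 and -0.41 ± 0.34 in AL mice. Without the third young AL mouse the AL values were -0.20 ± 0.16 and -0.27 ± 0.35. The value of Dlx1 in EOD mice was -0.040 without the first young EOD mouse. That of Dlx2 ranged from 0.087 to 0.41 in EOD mice (without the third and without the fourth old EOD mouse) and from -0.67 to -0.20 in AL mice (without the second and without the fourth young AL mouse).

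Dcx encodes doublecortin, which binds microtubules in migrating neuroblasts. It was at 69.4, 28.7, 47.1 and 51.4 CPM in young AL mice, at 27.7, 55.7 and 39.6 CPM in young EOD mice, at 27.0, 39.4, 24.6 and 26.6 CPM in old AL mice and at 35.5, 21.8, 37.9 and 24.0 CPM in old EOD mice. Young mice differed by more than 2-fold among themselves, and the old and young groups overlapped under both kinds of feeding. The log2 fold change with age was -0.43 ± 0.25 (SE) in EOD mice (FDR 0.955) and -0.73 ± 0.24 in AL mice, or -0.74 ± 0.25 without the third young AL mouse. The EOD value was -0.66 without the first and -0.16 without the second young EOD mouse. Within lanes, with 1 or 2 mice per group in each, the log2 difference was 0.35 and -1.10 in EOD mice and -0.72, -0.60 and -0.94 in AL mice.

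The age differences of the neuronal tubulins lay close to 0. Tubb2b ranged from 47.2 to 68.8 CPM and Tubb3 from 224 to 314 CPM over all 15 mice, and all groups overlapped. Log2 fold changes in EOD mice were -0.07 ± 0.12 (SE) for Tubb2b and -0.01 ± 0.10 for Tubb3 (FDR 0.995 and 0.996), and in AL mice -0.03 ± 0.11 and 0.00 ± 0.09 (0.05 ± 0.11 and -0.02 ± 0.10 without the third young AL mouse). The sign of these values near 0 turned when single mice were left out. Beta-tubulin genes share long stretches of sequence and only uniquely placed reads were counted, so that the level of each is uncertain.

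Igfbpl1, a gene for a secreted protein related to the IGF-binding proteins, had the lowest log2 fold change of the 10 genes in AL mice. It was at 2.05, 2.38, 3.85 and 3.85 CPM in young AL mice and at 0.995, 1.18, 0.757 and 0.588 CPM in old AL mice, where its counts were only 4 to 9. In young EOD mice it was at 1.44, 2.24 and 4.21 CPM and in old EOD mice at 1.68, 0.797, 1.93 and 1.25 CPM. The AL groups did not overlap, as for 1.58% of the tested genes, and the EOD groups did. The AL comparison was known when the genes were chosen. The log2 fold change was -1.81 ± 0.41 (SE) in AL mice, or -1.68 ± 0.41 without the third young AL mouse, and -0.86 ± 0.41 in EOD mice (FDR 0.866). The third young EOD mouse carried much of the EOD value, which was -0.32 without it.

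Cd24a encodes a surface glycoprotein of neuroblasts that ependymal cells carry too. It was at 13.3, 12.5, 14.4 and 13.7 CPM in young AL mice, at 12.5, 13.9 and 10.4 CPM in young EOD mice, at 14.4, 9.19, 8.13 and 7.73 CPM in old AL mice and at 11.2, 12.4, 10.6 and 9.04 CPM in old EOD mice. The first old AL mouse was as high as the highest young AL mouse, and the other old AL mice were below all young mice. The log2 fold change was -0.18 ± 0.19 (SE) in EOD mice (FDR 0.995) and -0.45 ± 0.17 in AL mice, or -0.69 without the first old AL mouse and -0.41 ± 0.18 without the third young AL mouse. The 7 ependymal markers summed to 15.3 to 31.0 CPM in young AL and to 29.5 to 36.2 CPM in old AL mice, the lowest young value being that of the third young AL mouse (27.1 to 31.0 CPM without it), and their part in the level of Cd24a was not tested.

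Draxin encodes a secreted axon guidance protein and was the least abundant of the 10. Its counts were 8 to 13 in young AL, 5 to 18 in young EOD, 1 to 7 in old AL and 3 to 10 in old EOD mice. In CPM, the young EOD mice were at 1.03, 0.860 and 2.37 and the old EOD mice at 0.838, 0.797, 0.276 and 0.289. These groups did not overlap, which was the case for 4.29% of all tested genes in this direction, Sox11 among them. The nearest mice were at 0.860 CPM (second young EOD mouse, 5 counts) and 0.838 CPM (first old EOD mouse, 10 counts). Counting error far exceeds the gap between them. The log2 fold change was -1.36 ± 0.54 (SE) in EOD mice (FDR 0.761), or -0.79 without the third young EOD mouse, and -0.66 ± 0.52 in AL mice, or -0.83 ± 0.49 without the third young AL mouse.

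**Figure D2:**
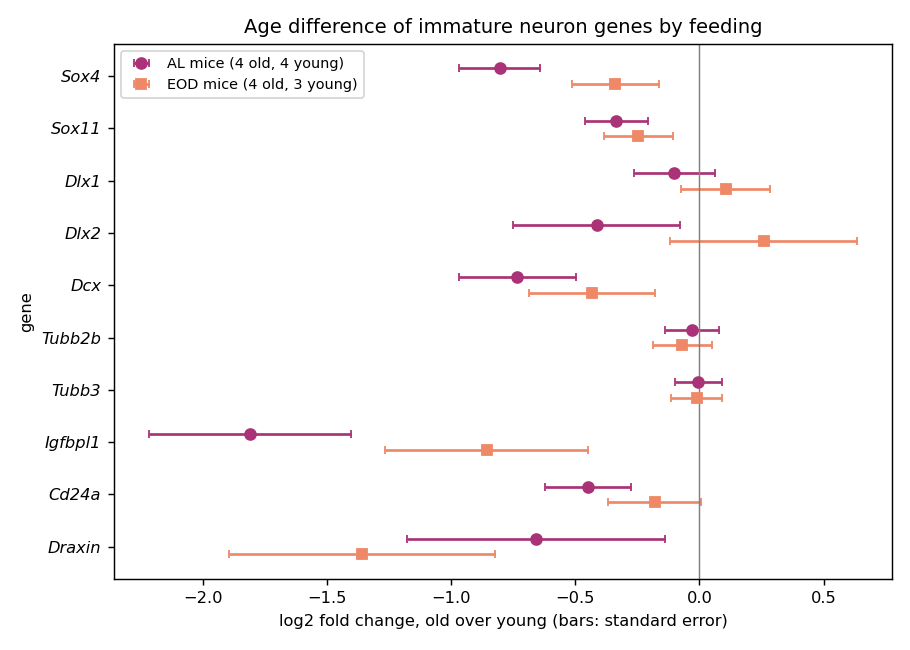
Log2 fold change of old over young mice (x axis) for each gene (y axis), in AL mice (circles) and EOD mice (squares), with the standard error. In AL mice Igfbpl1 lies at -1.81 and Sox4 at -0.80, and in EOD mice the values of all 10 genes except Draxin (-1.36) lie between -0.86 and 0.26.

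As a group, 0 of the 10 genes passed FDR 0.1 for age in EOD mice, where 46 of 15864 genes did (0.290%). At an unadjusted p under 0.05, Igfbpl1 and Draxin did, and so did 5.74% of all genes. The fold change was below 0 for 8 of the 10 genes, against 50.1% of all genes, with a median of -0.21 against -0.00036 on the log2 scale. In AL mice, all 10 genes were below 0 (52.4% of all genes), and the median was -0.43, but these values come from the comparison that was known when the genes were chosen. Without the third young AL mouse 9 of 10 were below 0 in AL mice (51.6% of all genes), with Tubb2b at 0.05. No gene of the 10 passed FDR 0.1 for age in EOD mice in any of the 26 alternatives run, DESeq2 and limma voom included, in which 19 to 125 of all genes were called.

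Whether feeding changed these genes was asked separately in young and old mice. In young mice, log2 fold changes of EOD over AL ranged from -0.48 ± 0.37 (SE, Dlx2) to 0.56 ± 0.50 (Draxin), and 9 of 10 were below 0 (50.8% of all genes). Without the third young AL mouse they ranged from -0.34 ± 0.38 to 0.38 ± 0.47 in the same genes, and 8 of 10 were below 0 (49.6% of all genes). In old mice they ranged from -0.14 ± 0.56 (Draxin) to 0.72 ± 0.43 (Igfbpl1), with Sox4 at 0.23 ± 0.17, and 4 of 10 were below 0 (49.2% of all genes). None of the 10 passed FDR 0.1 in either (lowest FDR 0.996 in young and 0.9999 in old mice, edgeR), and none of the 15864 genes did (0.00%). At an unadjusted p under 0.05, none of the 10 passed, against 657 genes in young mice (4.14%) and 409 in old mice (2.58%). With sequencing lane as a covariate Sox4 was at -0.40 ± 0.15 in young and 0.32 ± 0.14 in old mice, with unadjusted p of 0.0164 and 0.0347 in the edgeR fit (FDR 0.876 and 0.9998), when 875 and 395 of all genes had an unadjusted p under 0.05. Without the third young AL mouse Sox4 was at -0.15 ± 0.17 in young mice (unadjusted p 0.395, edgeR). With the olfactory bulb marker level described below as a covariate, Sox4 was at -0.11 ± 0.14 in young and 0.14 ± 0.13 in old mice (0.430 and 0.303). With both changes it was at 0.03 ± 0.12 and 0.13 ± 0.11 (0.833 and 0.255). The number of the 10 genes below 0 also depended on these choices. In young mice it was 7 with the marker level as a covariate and 4 with both changes. In old mice it was 7 in each of these fits. With DESeq2, 1 gene was called in young mice and 0 in old mice, and it was not one of the 10.

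Whether the age difference depended on feeding was tested with the interaction of age and diet. Its estimate was 0.95 ± 0.58 (SE, log2) for Igfbpl1, with an FDR of 0.9998, and it was 0.63 without the first and 1.49 without the third young EOD mouse. Over the 10 genes it ranged from -0.70 to 0.95 with 0 calls among the 10 or among all genes (0.00%), of which 362 had an unadjusted p under 0.05 (2.28%), none of the 10 among them. For Sox4 it was 0.47 ± 0.24 (unadjusted p 0.0648, edgeR), or 0.54 ± 0.23 with the replicate number as a block (0.0329) and 0.72 ± 0.21 with sequencing lane as a covariate (0.00326, when 569 genes had an unadjusted p under 0.05), with FDRs of 0.9998 to 0.99996. Without the third young AL mouse the Sox4 interaction was 0.38 ± 0.24 (unadjusted p 0.123, edgeR). With the olfactory bulb marker level described below as a covariate it was 0.25 ± 0.19 (0.214). With both changes it was 0.10 ± 0.17 (0.554). The AL difference that enters the interaction was known when the genes were chosen, and the 5 comparisons share groups of mice. After adjustment over all genes, no difference in the age effect between the feeding groups was called for any of the 10.

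Mice of the same group differed in several of these genes together. After the group means were removed from log2 CPM, Dcx and Dlx1 varied together over 14 mice without the third young AL mouse (Pearson r = 0.90, Spearman rho = 0.91), as did Sox4 and Dlx1 (0.85 and 0.84), Dcx and Dlx2 (0.80 and 0.80), Dlx1 and Dlx2 (0.78 and 0.81), Sox4 and Dcx (0.76 and 0.77) and, less closely, Sox4 and Dlx2 (0.52 and 0.59). With all 15 mice these values were 0.83 and 0.81 for Dcx and Dlx1, 0.63 and 0.56 for Sox4 and Dlx1, 0.76 and 0.76 for Dcx and Dlx2, 0.57 and 0.53 for Dlx1 and Dlx2, 0.72 and 0.70 for Sox4 and Dcx and 0.57 and 0.53 for Sox4 and Dlx2. Sox11 had its highest r with Dlx1 (0.55 over 14 and 0.62 over 15 mice) and was at 0.33 with Sox4 over 14 mice, and Igfbpl1 had r = 0.48 with Dlx2 (0.52 over 15 mice). Over all 45 pairs of the 10 genes the mean r was 0.21 (0.18 with 15 mice), against 0.00056 over all pairs of tested genes, and 13 pairs were below 0. The values of a pair come from the same libraries, so r is given as a description. The 6 genes most like the mean deviation of the 10 among 14115 genes were Adamtsl1 (r = 0.95, rho = 0.90), Nmb (0.91, 0.93), Ptpro (0.91, 0.82), Fzd5 (0.90, 0.93), Sall1 (0.89, 0.83) and Slc38a3 (0.88, 0.83), of which Nmb is one of the olfactory bulb markers used below. With all 15 mice, 9330158H04Rik (0.87, 0.94) and Frmd7 (0.86, 0.87) took the places of Fzd5 and Sall1.

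**Figure D3:**
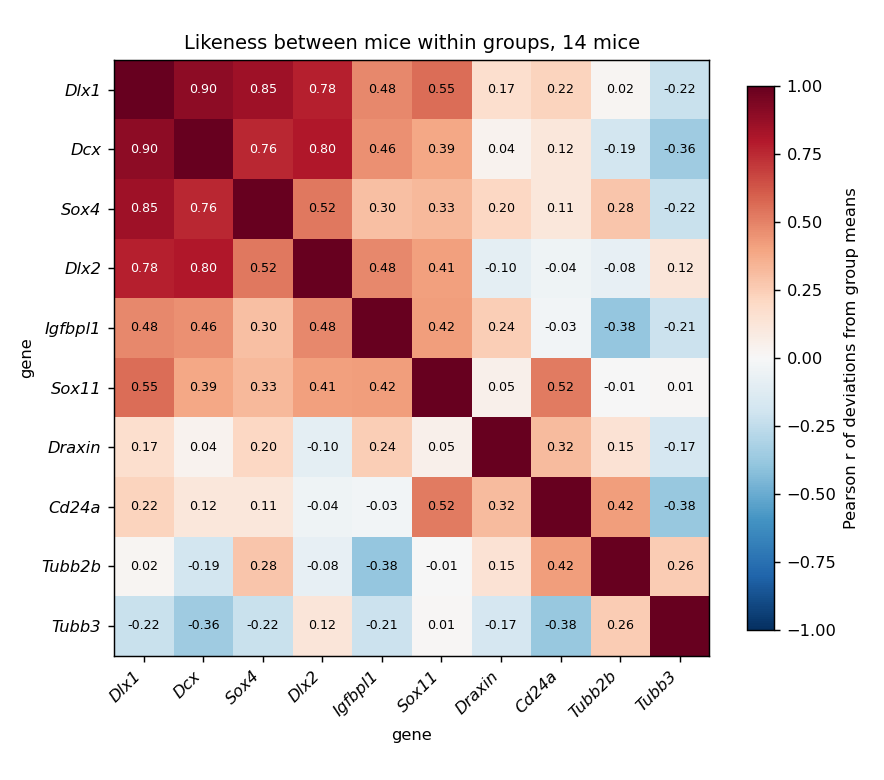
Pearson r between each pair of genes over 14 mice, from log2 CPM with group means removed (colour and printed value; both axes list the 10 genes). Dlx1, Dcx, Sox4 and Dlx2 form a block with r from 0.52 to 0.90, and Tubb2b and Tubb3 lie outside it.

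Markers of the olfactory bulb, the target of migrating neuroblasts, varied widely between these whole-brain libraries. Cdhr1, a gene of mitral and tufted cells, was at 83.4, 16.0, 44.9 and 43.9 CPM in young AL mice, at 7.08, 62.8 and 29.4 CPM in young EOD mice, at 12.8, 52.6, 29.1 and 9.67 CPM in old AL mice and at 60.2, 16.8, 39.5 and 22.3 CPM in old EOD mice. Omp, the gene of olfactory receptor neurons whose axons enter the bulb, was at 0 in 4 mice of 3 groups and reached 8.28 CPM in the fourth young AL mouse. Both genes spanned a wide range inside every group. The mean log2 CPM of 14 such markers was 4.23, 2.78, 3.28 and 3.90 in young AL mice, 2.01, 3.83 and 3.25 in young EOD mice, 2.27, 4.03, 3.30 and 2.47 in old AL mice and 3.90, 2.98, 3.68 and 2.78 in old EOD mice. Group means were 3.55 ± 0.644 (SD, n = 4), 3.03 ± 0.928 (n = 3), 3.02 ± 0.808 (n = 4) and 3.34 ± 0.539 (n = 4), and all groups overlapped. The young AL mean was 3.64 ± 0.759 (n = 3) without the third mouse. No marker of this list was at 0 in every mouse, and their summed level ranged from 372 to 731 CPM. Cdhr1 and Omp were named after their values had been seen.

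Dcx and Dlx1 rose with this marker level inside the groups. In an edgeR fit with the 4 group means and the marker level as a covariate, chosen after the data had been seen, the slope for Dcx was 0.52 ± 0.080 (SE, log2 per unit of the marker level) with an FDR of 0.00223, and for Dlx1 it was 0.35 ± 0.057 with an FDR of 0.00405. In all, 40 of the 15864 genes passed (0.252%), all with a rising slope. The 14 markers were among the genes tested, and a rising slope is built in for them. This count of genes and those below are therefore partly fixed by the choice of markers. The slope of Sox4 was 0.29 ± 0.074 with an FDR of 0.240, and over the 14 mice without the third young AL mouse it was 0.31 ± 0.062 with an FDR of 0.0264, when 52 genes passed (0.331%). Dlx2 had a slope of 0.51 ± 0.18 that did not pass (FDR 0.989). The slopes were 0.09 ± 0.075 for Sox11, 0.36 ± 0.23 for Igfbpl1, 0.12 ± 0.31 for Draxin, -0.03 ± 0.066 for Tubb2b, -0.02 ± 0.057 for Tubb3 and -0.04 ± 0.10 for Cd24a, with FDRs of 0.9997. Without the second young AL and the first young EOD mouse, the pair whose deviations from their group's mean marker level lay farthest from the median deviation, Dcx kept a slope of 0.45 and Dlx1 of 0.37, but with FDRs of 0.135 and 0.110 they no longer passed, and 20 genes did (0.126%).

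**Figure D4:**
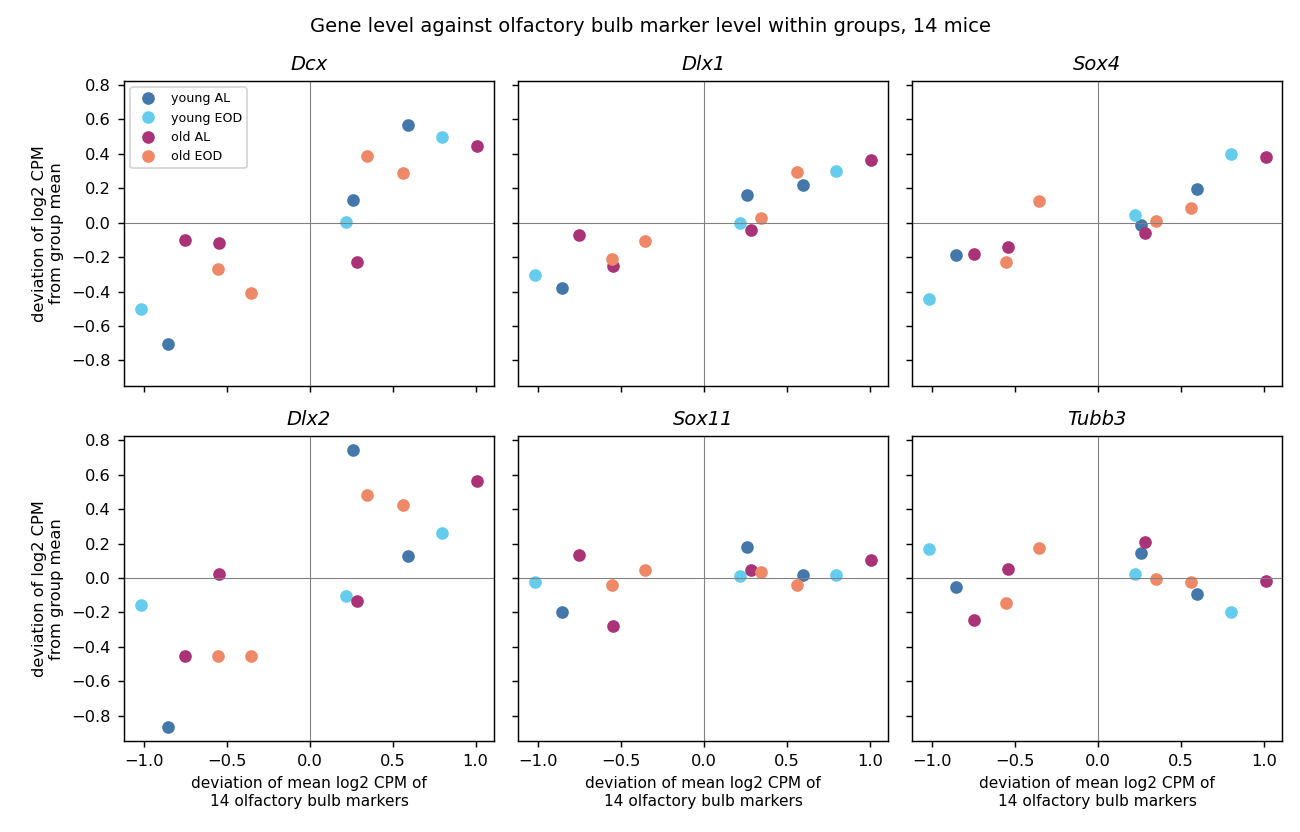
Deviation of log2 CPM from the group mean for 6 genes (y axis) against the deviation of the mean log2 CPM of 14 olfactory bulb markers (x axis), one point per mouse, 14 mice, coloured by group. Dcx, Dlx1, Sox4 and Dlx2 rise from left to right, while Sox11 and Tubb3 show no such rise (slopes over these 14 mice of 0.08 and -0.02).

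The age differences were then read beside the marker level. With the marker level as a covariate, the log2 fold change in AL mice was -0.41 ± 0.14 (SE) for Dcx in place of -0.73, -0.66 ± 0.13 for Sox4 in place of -0.80, -1.63 ± 0.41 for Igfbpl1 in place of -1.81, and 0.10 ± 0.10 for Dlx1 in place of -0.10. Without the third young AL mouse these values were -0.35 ± 0.15 for Dcx, -0.52 ± 0.12 for Sox4, -1.43 ± 0.41 for Igfbpl1 and 0.03 ± 0.099 for Dlx1. In EOD mice, in which the old group had the higher marker level, it was -0.59 ± 0.15 for Dcx (FDR 0.224) and -0.41 ± 0.14 for Sox4 (FDR 0.588), and without the third young AL mouse the FDRs were 0.121 and 0.206. No gene of the 10 passed in EOD mice in either fit, in which 0.271% and 0.389% of all genes did. How the marker level came to differ between mice was not tested.

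**Figure D5:**
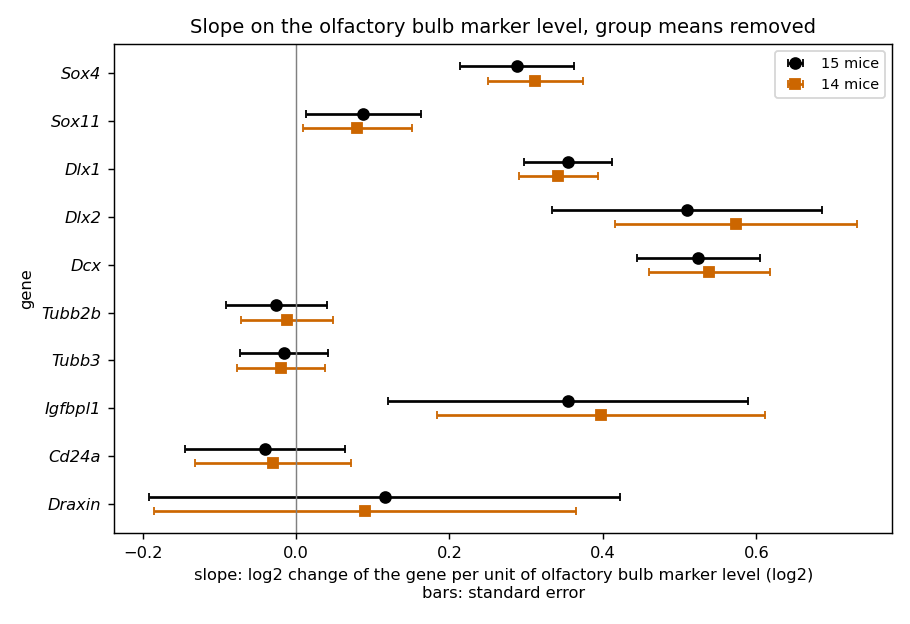
Slope of each gene (y axis) on the olfactory bulb marker level (x axis, log2 change of the gene per log2 unit of the marker level), with standard errors, from fits of all 15 mice (circles) and of 14 mice (squares). Dcx (0.52) and Dlx1 (0.35) pass FDR 0.1 with 15 mice, and Tubb2b, Tubb3 and Cd24a lie at 0 within their errors.

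Genes related to the 10 were counted from lists, which are not restricted to immature neurons. Of 29 tested SoxC, Dlx, doublecortin-like and other neuroblast genes, Nrep and Marcksl1 fell with age in AL mice. Nrep also fell in EOD mice, and none rose in either. Over all genes, 0.145% were called lower in AL mice and 0.0315% in EOD mice. The lists, like the 10 genes, were chosen with earlier results of these data known. Calls and counts from them are therefore not independent of those results. Nrep, a small protein of neurite outgrowth and regeneration, went from 98.1 ± 10.9 to 64.4 ± 7.33 CPM (SD, n = 3 and 4) in EOD mice, a log2 fold change of -0.60 ± 0.12 (SE; edgeR FDR 0.0334), and from 96.4 ± 17.5 to 64.0 ± 3.85 CPM (n = 4 and 4) in AL mice, where its log2 fold change was -0.59 ± 0.11, or -0.48 ± 0.11 without the third young AL mouse (edgeR FDR 0.0101 and 0.0389). Marcksl1, an actin-binding substrate of protein kinase C, fell by 0.47 on the log2 scale in AL mice (FDR 0.0385) and had a value of -0.39 in EOD mice that did not pass (FDR 0.371). The list's fold change was below 0 for 23 of 29 genes in AL mice and for 10 of 29 in EOD mice, with medians of -0.13 and 0.05. Over all genes the shares below 0 were 52.4% and 50.1% and the medians -0.0096 and -0.00036. Without the third young AL mouse 25 of 29 were below 0 in AL mice, with a median of -0.18. The 14 olfactory bulb markers stood at 13 of 14 and 4 of 14 below 0 in the same comparisons, with medians of -0.39 and 0.19 and no call, and their part in the list was not tested.

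Genes upstream and alongside were counted in the same way. Over all genes, 1.09% were called in either direction in AL mice and 0.290% in EOD mice. Of 25 genes of neurite growth and polysialic acid and of 13 tested tubulins outside the 10, none passed in AL or EOD mice, and the most abundant of each, Kif5c and Tubb4a, had log2 values of -0.12 and 0.13 in EOD mice. Of 22 tested guidance genes around Draxin, the repellent Sema3a fell in AL mice by 0.47 (edgeR FDR 0.0660). Without the third young AL mouse its FDR was 0.0995, close to the threshold. None of these genes passed in EOD mice. Of 25 neural stem and progenitor genes, Vim, an intermediate filament of stem cells and of reactive astrocytes, rose in both, from 31.1 ± 2.56 to 50.2 ± 3.78 CPM (SD, n = 4 and 4; edgeR FDR 0.000367) in AL mice and from 27.8 ± 3.90 to 45.4 ± 2.92 CPM (n = 3 and 4; edgeR FDR 0.00212) in EOD mice. Prom1, a membrane glycoprotein of progenitors and ependyma, fell in AL mice from 20.0 ± 1.23 to 13.5 ± 1.49 CPM (FDR 0.0217) and did not pass in EOD mice (log2 value -0.27, FDR 0.866). Of 15 tested proliferation genes none passed, and Ccnd2, a cyclin of dividing progenitors and the most abundant, was at log2 -0.32 in EOD and -0.38 in AL mice (FDR 0.820 and 0.257).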

How the data were processed

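Whole-brain RNA of 15 mice was sequenced as single-end reads. The authors trimmed the reads, aligned them with STAR to Ensembl GRCm38 and, per the file headers, counted them with featureCounts 1.5.0-p1 on genes of Ensembl release 79 (reverse-stranded, primary alignments, minimum mapping quality 5). The deposited values are raw counts per gene, beside each gene's exon length, from which RPKM was computed here. Reads of near-identical tubulin genes can be split or lost in such counting. Dlx1 and Sox4 overlap genes of the other strand, which the stranded counting separates.

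Samples were grouped by the labels. The 10 genes and the gene lists were chosen with earlier results of these data known. All mice entered a single fit of 4 group means, from which edgeR 4.0.16 (R 4.3.3) took each difference (filterByExpr, TMM, quasi-likelihood test, Benjamini-Hochberg adjustment over all 15864 genes tested, FDR under 0.1), and the common biological coefficient of variation was 0.119. The study's own threshold was kept, and its tool, DESeq2 (1.42.0), was run as an alternative. Deviations between mice were taken on log2 CPM (prior count 2). The labels say only that the mice were separate samples.

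Named besides the 10 genes are, from each list, those past FDR 0.1 for age in AL or EOD mice, at most 4 by smallest p, or the most abundant gene where none passed, and the 6 genes most like the mean deviation of the 10. Alternatives were a filter that kept any gene counted at all (minimum 1), a filter of 10 counts in each mouse, DESeq2, RLE size factors, limma 3.58.1 voom with sample quality weights, an FDR of 0.05, the replicate number as a block, sequencing lane, and leaving out each mouse. The olfactory bulb marker level as a covariate and the block without the third young AL mouse were chosen once the data were known. In a test on simulated data, the age comparison in EOD mice recovered 59.7%, 71.6% and 87.9% of genes changed 1.5-fold, 2-fold and 4-fold among 15864 genes, with 10 false calls. The 200 changed genes were drawn at random over all levels and changed under both kinds of feeding. These rates therefore do not give the recovery of the 10 genes, of which Igfbpl1 and Draxin had few counts. No library was found to be deposited in duplicate among the 21 pairs of replicates. The authors' other experiments were not analysed here. The result of 1 marker list is not reported here.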

Additional observations from a re-analysis of the deposited data

Results flagged for a closer look

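Dcx in old AL mice was marked because 1 of the 4 mice lay far from the rest: the second old AL mouse was at 39.4 CPM, and the others were between 24.6 and 27.0 CPM. The same mouse had the highest olfactory bulb marker level of its group, 4.03 against 2.27 to 3.30 (mean log2 CPM of 14 markers), and its part in the value was not tested. The gap between a group's extreme mouse and its neighbour was examined for the 10 genes in the 3 groups of 4 mice, 30 groups of values in all, and chance marks about 1 in 20.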

How the results depend on the processing

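For the age difference in EOD mice, 46 genes passed. With every gene of at least 1 count 100 did, with DESeq2 70 and with limma voom 125, and none of the 10 genes was among those called in any alternative. Leaving out 1 mouse gave 19 to 76 genes. The lowest numbers were 19, 21 and 20 without young EOD mouse 1, 2 and 3 and 24 without the second old EOD mouse, and the highest was 76 without the third young AL mouse. For the age difference in AL mice, 173 genes passed, 444 with every gene of at least 1 count, and 102 to 221 when 1 mouse was left out (102 without the third old AL mouse).

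No gene passed for diet in young mice (26 with every gene of at least 1 count, 1 with DESeq2), for diet in old mice (27 with every gene of at least 1 count, 2 with limma voom, 2 with lane as a covariate) or for the interaction (26 with every gene of at least 1 count). None of the 10 genes was among these.

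Values near 0 changed sign for age in EOD mice. Tubb2b, at -0.07, was 0.0076 with lane as a covariate and 0.0025 without the fourth old EOD mouse, and it spanned -0.18 to 0.015 over all such omissions (0.015 without the second young EOD mouse). Tubb3, at -0.01, spanned -0.10 to 0.079 when 1 mouse was left out (0.079 without the first young EOD mouse, 0.035 without the fourth old EOD mouse) and was 0.00089 with the marker level as a covariate and without the third young AL mouse. Dlx1, at 0.11, spanned -0.040 to 0.26 (-0.040 without the first young EOD mouse, -0.0053 without the first old EOD mouse) and was -0.0085 with the marker level as a covariate. Dlx2 in young mice by diet, at -0.48, was 0.078 with the marker level and without the third young AL mouse. The cause was not tested.

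The replicate numbers of the labels did not pair the mice: over 21 same-numbered pairs the correlation of deviations was -0.113 to 0.113, with 2 over 0.1. With the replicate number as a block, 35 genes passed for age in EOD mice and 155 in AL mice, and 0 for the other comparisons. Total counts limit Igfbpl1 and Draxin most.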

Other observations

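Markers of other cells were counted in the same age comparisons, in which 1.09% of all genes were called in AL mice and 0.290% in EOD mice. Of 6 astrocyte markers, Gfap rose with age in AL mice (168 ± 10.9 to 393 ± 9.71 CPM, SD, n = 4 and 4) and in EOD mice (148 ± 16.1 to 318 ± 26.1 CPM, n = 3 and 4). Mbp was called among 6 oligodendrocyte markers in AL mice, but not without the third young AL mouse (edgeR FDR 0.0515 and 0.156). Of the 10 markers of mature neurons, 7 of oligodendrocyte precursors and newly formed oligodendrocytes, 5 of endothelial cells, 7 of ependyma, 7 of choroid plexus, 7 of dentate gyrus, 7 tested of cerebellum and 5 of blood, none passed in AL or EOD mice. Gpr17, of the precursors, was called lower in EOD mice without the third young AL mouse.

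Dentate gyrus is the other place of birth of neurons. Its markers summed to between 50.3 and 103 CPM over the 15 mice, and Prox1, the most abundant, was at log2 -0.03 ± 0.15 (SE) with age in EOD mice and 0.09 ± 0.14 in AL mice. The pituitary hormone genes Gh and Prl were called higher in old AL mice, and without the third young AL mouse Gh was and Prl was not (edgeR FDR 0.0586 and 0.177). This came from high levels in single mice: the 6 pituitary markers summed to 1039 CPM in the highest old AL mouse, against a median of 9.76 CPM in that group and at most 8.19 CPM in any young AL mouse.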
